A study of Homo sapiens with 8 samples.

Results

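The double-stranded RNA sensors and adaptors are the receptors that recognise double-stranded RNA inside a cell and the proteins that relay their signal. A set of 10 genes, chosen by name with earlier results of these data known, was followed among the 19892 genes listed. They were the cytosolic helicases RIGI, IFIH1 and DHX58, the endosomal receptor TLR3, the kinase EIF2AK2 and the Z-form RNA sensor ZBP1. The others were the adaptors MAVS and TICAM1 and the kinases TBK1 and IKBKE. All 10 were listed, and 9 of them passed the filter on low counts in each comparison. ZBP1 did not.

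The cells were MDA-MB-231, a human triple-negative breast cancer line. One group received siRNA against ADAR1 (the gene ADAR) and the other a control siRNA. Each group was measured by RNA-seq, called Input, and by ribosome profiling (Ribo-seq), in 2 libraries per group and assay, 8 libraries in all. Per the labels' protocols, RNA of 30 nt was cut from a gel for Ribo-seq and RNA of 40 to 60 nt for Input. Neither the siRNA sequences nor the time after transfection are in the sources used here. Separate cultures are not named for the replicates, and each p-value therefore reflects how far the libraries themselves spread, possibly for technical reasons only.

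ADAR1 is a deaminase that turns adenosines of RNA duplexes into inosines, and the edited duplexes are poorer ligands for several of these receptors. RIG-I (RIGI) and MDA5 (IFIH1) signal through MAVS on mitochondria, and TLR3 signals through TICAM1 (TRIF). Both routes reach the kinases TBK1 and IKK-epsilon (IKBKE), which activate IRF3 and so interferon genes. PKR (EIF2AK2) instead phosphorylates the initiation factor eIF2 alpha and lowers protein synthesis. Most of the sensors are themselves interferon-stimulated genes, and in many human tumour lines loss of ADAR1 is known to engage PKR, MDA5 or ZBP1.

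ADAR served as the check of the labels. Its Input TPM (abundance per transcript length, scaled to the library) was 14.8 and 30.6 in ADAR1 siRNA replicates 1 and 2, against 106 and 110 in the controls. Its Ribo-seq TPM was 1.55 and 8.41 with ADAR1 siRNA, against 19.1 and 20.3 with control siRNA. ADAR1 siRNA replicate 1 thus kept 13.7% of the control Input level and 7.87% of the control footprint level, and replicate 2 kept 28.3% and 42.7%. In RNA the edgeR log2 fold change was -2.26 ± 0.32 (SE) and the Benjamini-Hochberg adjusted p 0.0527, and in footprints they were -2.04 ± 0.47 and 0.0485. Total estimated counts were 14646868 and 14875465 in the ADAR1 siRNA Ribo-seq libraries, 11975081 and 10492223 in the control Ribo-seq libraries, and 15732757 to 17153716 in the Input libraries. Over 11743 genes the SD of the log2 difference between the 2 replicates was larger with ADAR1 siRNA than with control siRNA in Input, at 0.36 against 0.21, and in Ribo-seq, at 0.47 against 0.39. Mesenchymal and basal markers of the line (VIM, AXL, CD44, SPARC, TGFBI, EGFR and MSN) summed to 6761 and 7460 TPM with ADAR1 siRNA and to 6940 and 6905 TPM with control siRNA in Input, and in Ribo-seq to 2657 and 3791 TPM with ADAR1 siRNA and 3682 and 4017 TPM with control siRNA. The epithelial markers CDH1, EPCAM and KRT8 summed to 614 and 678 TPM with ADAR1 siRNA and 741 and 713 TPM with control siRNA in Input, and to 122 and 196 TPM against 273 and 344 TPM in Ribo-seq. Both sums were lowest in ADAR1 siRNA Ribo-seq replicate 1, and the part of that library in the footprint results was tested only by leaving it out. The epithelial sum was mostly KRT8, with 593 and 664 TPM with ADAR1 siRNA and 728 and 700 TPM with control siRNA in Input. EPCAM went the other way, at 21.0 and 14.1 TPM against 13.5 and 13.3 TPM. VIM was the largest term of the mesenchymal and basal sum in Input. Other genes of that sum moved in either direction. TGFBI had 76.1 and 294 TPM against 70.5 and 70.4 TPM, and MSN 873 and 901 TPM against 996 and 950 TPM. Of the 3 receptor genes whose lack defines triple-negative cells, ESR1 and PGR stayed under 1 TPM in all 8 libraries, whereas ERBB2 had 29.5 and 32.4 TPM with ADAR1 siRNA and 31.1 and 35.5 TPM with control siRNA in Input.

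RNA levels differed widely between the members. With ADAR1 siRNA, TBK1 and EIF2AK2 led in Input at 57.1 ± 8.9 and 57.0 ± 7.9 TPM (SD, n = 2), followed by RIGI at 49.2 ± 13.8 and MAVS at 41.5 ± 4.1. Each of these genes overlapped its neighbour in that order. With control siRNA the order was RIGI at 57.1 ± 0.65 TPM, EIF2AK2 at 55.3 ± 1.2, TBK1 at 48.6 ± 0.71 and MAVS at 43.4 ± 0.32. Neighbours in that control order were separated in both libraries. A lower tier held IKBKE, TICAM1, TLR3 and IFIH1, at 8.34 to 12.4 TPM on average with ADAR1 siRNA and 7.77 to 14.7 TPM with control siRNA. DHX58 was lower still, at 2.06 ± 0.37 TPM with ADAR1 siRNA and 2.91 ± 0.27 with control siRNA. ZBP1 had no count in any Input library.

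**Figure D1:**
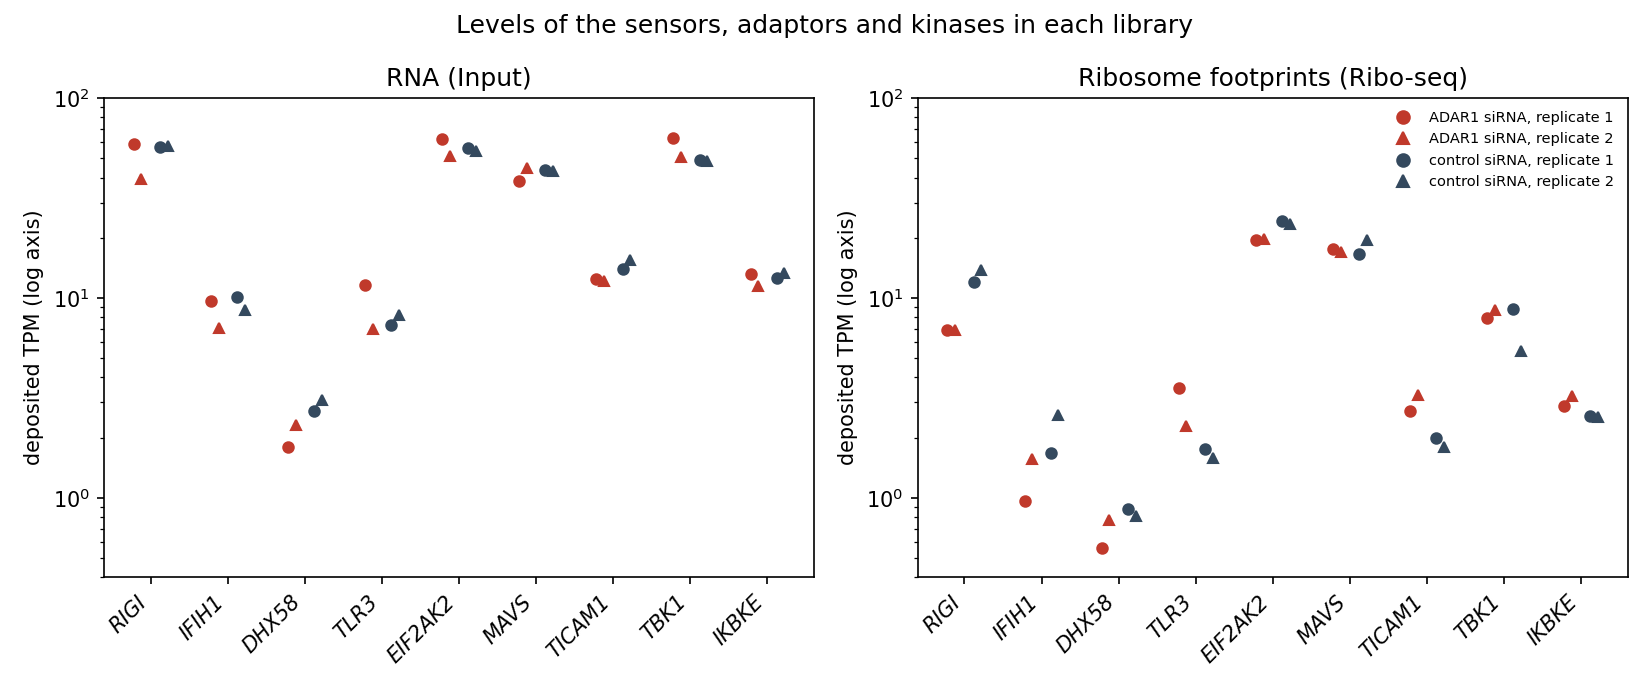
Level of the 9 tested double-stranded RNA sensors, adaptors and kinases in every library, as deposited TPM on a log scale, for Input and Ribo-seq, with ADAR1 siRNA left of control siRNA and replicates marked separately. RIGI, EIF2AK2, TBK1 and MAVS lie at 38.6 to 63.4 TPM in Input, and EIF2AK2 and MAVS lead in Ribo-seq.

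In footprints the order was different. EIF2AK2 averaged 19.5 ± 0.15 TPM with ADAR1 siRNA and 23.8 ± 0.57 with control siRNA, and MAVS averaged 17.2 ± 0.42 and 18.1 ± 2.1 TPM in the same groups. RIGI came after TBK1 with ADAR1 siRNA, at 6.89 against 8.32 TPM, but before it with control siRNA, at 12.9 against 7.09 TPM. The other tested members lay between 0.669 and 3.06 TPM with ADAR1 siRNA and between 0.844 and 2.55 TPM with control siRNA. TPM values are per length, but the lengths used in the 2 assays differed by gene. The count behind 1 TPM in Ribo-seq relative to Input was lowest for MAVS among 8 members, at 0.285 to 0.286 of that of the median gene, and highest for TLR3, at 1.82 to 1.83. Footprint-to-RNA ratios are therefore compared here between siRNAs for 1 gene and not between genes. Percentiles of the ratio among genes, given below for RIGI and TICAM1, also carry these lengths. For these 2 members the same relative count was 1.22 to 1.23 and 1.61 to 1.62, and their percentiles are read between siRNAs only.

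ADAR1 siRNA gave no member a called difference in RNA, 1 in footprints (RIGI, lower) and none in translational efficiency. Translational efficiency is the footprint level over the RNA level, and its change was tested as the assay by siRNA interaction over all 8 libraries. In RNA, edgeR called 0 of the 9 tested members at an adjusted p under 0.05, with 0 at an unadjusted p under 0.05, 0 by DESeq2 and 0 by limma-voom. Of all 12644 genes tested in RNA, 0.253% were called and 25.3% had an unadjusted p under 0.05. In the same fit ADAR itself, at -2.26, missed the threshold with an edgeR adjusted p of 0.0527. The absence of a call in RNA therefore does not show that the RNA of a member was unchanged. In footprints edgeR called 1 of 9 members, and DESeq2 and limma-voom called RIGI too, against 3.54% of 12000 genes called. There, 4 of 9 members (RIGI, IFIH1, TLR3 and TICAM1) had an unadjusted p under 0.05, against 24% of all genes. In translational efficiency edgeR called 0 of 9 members, as did DESeq2 and limma-voom, against 0.0463% of 12953 genes, and 3 members (RIGI, TICAM1 and IKBKE) had an unadjusted p under 0.05, against 22.7% of all genes. The median log2 fold change of the 9 members was -0.097 in RNA, 0.032 in footprints and 0.14 in translational efficiency, against 0.0037, 0.046 and 0.092 over all genes tested. The 2 ADAR1 siRNA Input libraries differed enough that calls depended on them. Without replicate 1 edgeR called RIGI (-0.51) and IFIH1 (-0.39) in RNA, against 31.9% of all genes in that fit. Without replicate 2 it called TBK1 (0.33), TLR3 (0.51), EIF2AK2 (0.18) and MAVS (-0.23), against 42.1% of all genes. Those fits give the single remaining library the spread of the controls. In bulk samples such as these, fewer cells that express a gene and less RNA per cell cannot be told apart.

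**Figure D2:**
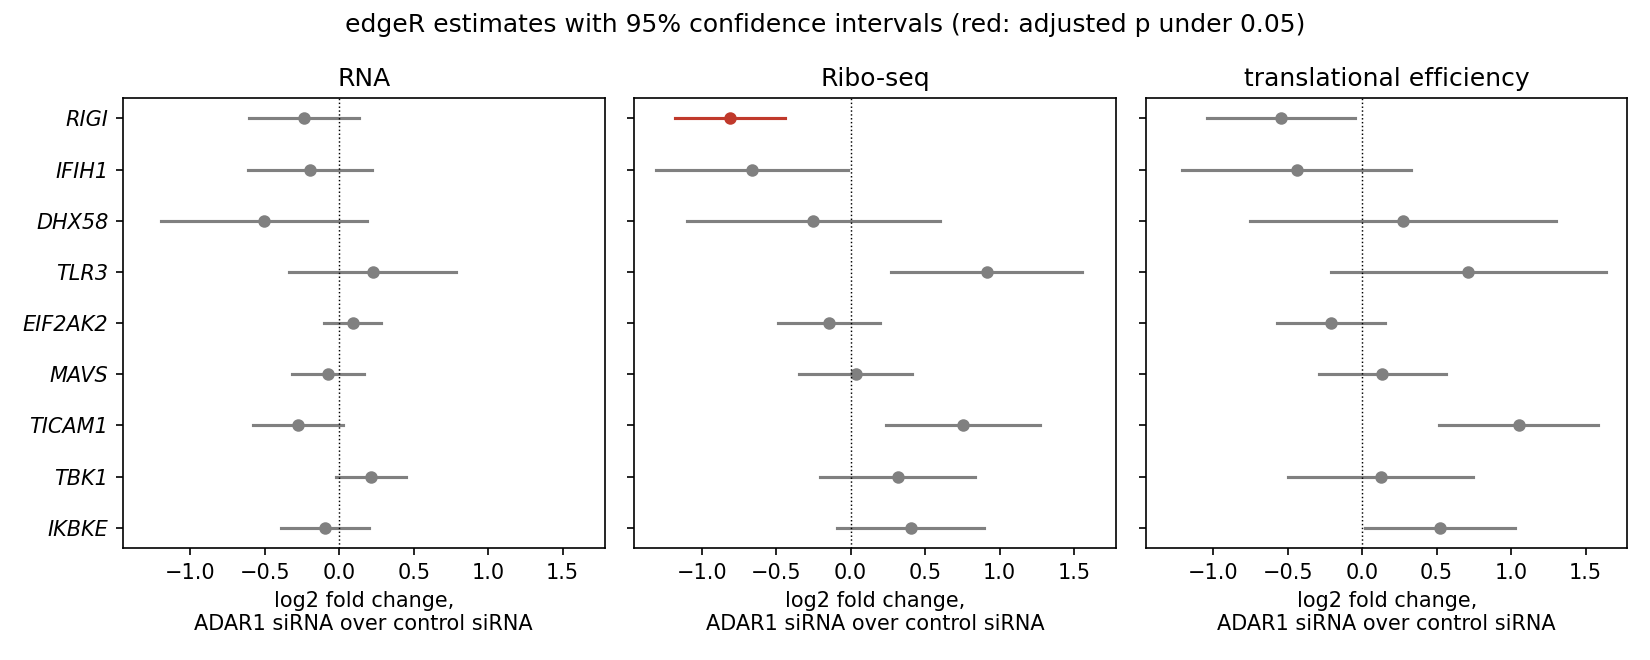
Log2 fold change, ADAR1 siRNA over control siRNA, of the 9 tested members in RNA, footprints and translational efficiency, as points with 95% confidence intervals from edgeR. The RIGI interval in footprints, -1.18 to -0.44, belongs to the only call, while TICAM1 lies below 0 in RNA and above 0 in the other panels.

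RIGI encodes RIG-I, the helicase that binds short double-stranded RNA with triphosphate ends. It lies on chromosome 9 from 32455302 to 32526196 (GRCh38.p14). Its Input TPM was 59.0 and 39.5 in ADAR1 siRNA replicates 1 and 2, against 56.6 and 57.5 in the controls. The first ADAR1 siRNA library lay above both controls on the TPM scale and the second below both, so the groups overlapped. The footprint TPM was 6.892 in each ADAR1 siRNA library, from 451 and 421 estimated counts, against 12.04 and 13.85 TPM in the controls, from 595 and 582 counts. Both ADAR1 siRNA libraries lay at 53.2% of the control mean. RIGI footprints fell by 0.81 ± 0.17 (SE) on the log2 scale, 1.75-fold, with an edgeR adjusted p of 0.0423. The call was lost without control Ribo-seq replicate 1 (log2 fold change -0.89, edgeR adjusted p 0.0589) and without control replicate 2 (-0.73, edgeR adjusted p 0.367). It held without either ADAR1 siRNA Ribo-seq library, but in those fits the 2 controls alone set the spread.

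The RNA difference of RIGI was -0.24 ± 0.15 (SE) with an edgeR adjusted p of 0.370. Its deposited translational efficiency was 0.117 and 0.175 with ADAR1 siRNA, against 0.213 and 0.241 with control siRNA, all from the authors' deposited table. Both ADAR1 siRNA ratios were below both control ratios. Within each pair of libraries, RIGI ranked at the 18.5 and 21.4 percentile of genes by that ratio with ADAR1 siRNA and at the 30 and 33.1 percentile with control siRNA. The interaction was -0.55 ± 0.22 on the log2 scale, and its edgeR adjusted p of 0.181 missed the threshold. Without both libraries of ADAR1 siRNA replicate 2 the interaction was -0.78, in a fit with a single ADAR1 siRNA library left per assay.

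MDA5, encoded by IFIH1 on chromosome 2 (162267074 to 162318684), recognises long double-stranded RNA. The Input level was 9.63 and 7.05 TPM with ADAR1 siRNA, against 10.1 and 8.71 with control siRNA. In Ribo-seq its TPM was 0.967 and 1.57 with ADAR1 siRNA, against 1.68 and 2.58 with control siRNA, from 70 and 106 counts against 92 and 120. All 4 footprint values were low and the groups did not overlap, with the highest ADAR1 siRNA library just under the lowest control. The footprint difference was -0.66 ± 0.29 (SE) on the log2 scale, with an unadjusted p of 0.0445 and an adjusted p of 0.196 by edgeR. Without ADAR1 siRNA Ribo-seq replicate 2 the footprint difference of IFIH1 passed, at -0.995 with an edgeR adjusted p of 0.00476, in a fit that called 28.1% of all genes. It was -0.42 without ADAR1 siRNA replicate 1 (edgeR adjusted p 0.322) and -0.35 without control replicate 2 (edgeR adjusted p 0.878). In RNA the difference was -0.19 ± 0.17, and in translational efficiency -0.44 ± 0.35.

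LGP2, the product of DHX58 (chromosome 17, 42101411 to 42112714), is a related helicase without the signalling domains, and it modulates the other two. In Input its TPM was 1.80 and 2.32 with ADAR1 siRNA, against 2.72 and 3.10 with control siRNA. Both ADAR1 siRNA libraries were below both controls. The RNA difference was -0.51 ± 0.29 (SE) on the log2 scale, with an edgeR adjusted p of 0.314. Its footprints rested on 27 and 35 counts with ADAR1 siRNA and 32 and 25 with control siRNA, and the difference of -0.25 ± 0.38 was not detectable at that depth.

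The promoters of some of these genes hold letters that match sequence elements through which interferon and NF-kB signals are known to act. Examples are printed for members that hold a match. RefSeq (GRCh38.p14) gave windows of 250 bases before to 50 after the start for 8 of the 10 members, and the sequences of DHX58 and ZBP1 are not used here. Both strands were searched for the interferon-stimulated response element (GAAA, any 2 bases, GAAA), for the shorter interferon regulatory factor motif AANNGAAA, which lies inside every match of the longer one, and for the NF-kB consensus. Of 35116 promoters of this length, 3.57% held the response element, 22.8% held AANNGAAA and 11.3% held the NF-kB consensus. Capitals mark the matched bases, overlapping matches being merged, and each sequence is written 5′ to 3′ on the strand of the gene. The windows lie on the minus strand for RIGI, IFIH1, EIF2AK2 and TICAM1 and on the plus strand for TLR3 and IKBKE.
RIGI, AANNGAAA, chr9:32526380-32526409: ggtgcggagggAAACGAAActagcccgagg
RIGI, AANNGAAA, chr9:32526314-32526350: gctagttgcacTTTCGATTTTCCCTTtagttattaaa
RIGI, NF-kB, chr9:32526252-32526283: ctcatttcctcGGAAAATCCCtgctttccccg
IFIH1, response element, chr2:162318817-162318854: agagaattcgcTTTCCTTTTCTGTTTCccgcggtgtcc
IFIH1, response element, chr2:162318685-162318720: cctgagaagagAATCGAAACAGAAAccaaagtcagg
TLR3, response element, chr4:186069141-186069172: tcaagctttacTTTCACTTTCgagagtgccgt
EIF2AK2, response element, chr2:37156966-37156997: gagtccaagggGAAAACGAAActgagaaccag
IKBKE, AANNGAAA, chr1:206470350-206470379: agagcatcctcTTTCTCTTttctgctgagc
TICAM1, NF-kB, chr19:4831812-4831843: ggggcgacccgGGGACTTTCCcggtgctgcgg
The longer interferon element was thus found for IFIH1, TLR3 and EIF2AK2, the shorter one alone for RIGI and IKBKE, and the NF-kB consensus for RIGI and TICAM1 among the windows shown. MAVS and TBK1 had no match in their windows. A match describes the letters only. IFIH1, TLR3 and EIF2AK2, which share the longer element, had RNA differences of -0.19, 0.22 and 0.090 on the log2 scale.

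TLR3 (chromosome 4, 186069156 to 186088073) encodes the receptor for double-stranded RNA in endosomes. Its Input TPM was 11.5 and 6.96 in ADAR1 siRNA replicates 1 and 2, against 7.31 and 8.22 in the controls. The ADAR1 siRNA libraries lay on either side of both controls. Its Ribo-seq TPM was 3.53 and 2.29 with ADAR1 siRNA, against 1.76 and 1.58 with control siRNA, from 226 and 137 counts against 85 and 65. Both ADAR1 siRNA libraries were higher than both controls. The footprint difference was 0.91 ± 0.29 (SE) on the log2 scale, the largest above 0 among the members, with an unadjusted p of 0.0100 and an adjusted p of 0.0941 by edgeR. Without ADAR1 siRNA Ribo-seq replicate 2 it passed, at 1.21 with an edgeR adjusted p of 3.87e-05, in a fit that called 28.1% of all genes. Leaving out ADAR1 siRNA replicate 1 instead gave 0.47 with an edgeR adjusted p of 0.242, and leaving out control replicate 2 gave 0.82 with 0.416. The translational efficiency difference was 0.71 ± 0.42, with an edgeR adjusted p of 0.338.

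TICAM1 (chromosome 19, 4815932 to 4831712) encodes TRIF, the adaptor that TLR3 recruits. The Input level was 12.4 and 12.1 TPM with ADAR1 siRNA, against 14.01 and 15.42 with control siRNA. The footprint TPM was 2.71 and 3.28 with ADAR1 siRNA, against 1.99 and 1.79 with control siRNA, from 137 and 155 counts against 76 and 58. The ADAR1 siRNA libraries were below both controls in RNA and above both in footprints. Such opposite separation held for 1 of 9 members, against 13.7% of the 11743 genes tested in both assays. The deposited translational efficiency, in the authors' deposited table, was 0.218 and 0.271 with ADAR1 siRNA, against 0.142 and 0.116 with control siRNA. By that ratio TICAM1 ranked at the 37.5 and 36.5 percentile of genes with ADAR1 siRNA and at the 18 and 12.9 percentile with control siRNA.

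The interaction for TICAM1 was 1.05 ± 0.24 (SE) on the log2 scale, 2.07-fold, with a 95% confidence interval of 0.52 to 1.58. Its unadjusted p was 0.00128 and its edgeR adjusted p of 0.0578 missed the threshold. Over 17 alternatives the value ranged over 0.91 to 1.18, with 1.09 without ADAR1 siRNA Ribo-seq replicate 1 and 1.01 without replicate 2. The interaction passed the threshold in 6 of the 17, each of which called more of all genes than the 0.0463% of the main fit. The share was 5.04% with no filter and 9.02% with the replicate block. The block pairs the 2 assays within each siRNA, a pairing that the main interaction leaves out. Replicate deviations correlated between the assays at 0.38 with ADAR1 siRNA and 0.0078 with control siRNA. The other passing fits kept only 1 ADAR1 siRNA library in at least 1 assay. The footprint difference alone was 0.75 ± 0.23 with an edgeR adjusted p of 0.0887 (0.0270 without ADAR1 siRNA Ribo-seq replicate 1), and the RNA difference was -0.28 ± 0.13 with an edgeR adjusted p of 0.228. TLR3 and its adaptor thus both had higher footprint values in each ADAR1 siRNA library, and neither passed the test across all genes.

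**Figure D3:**
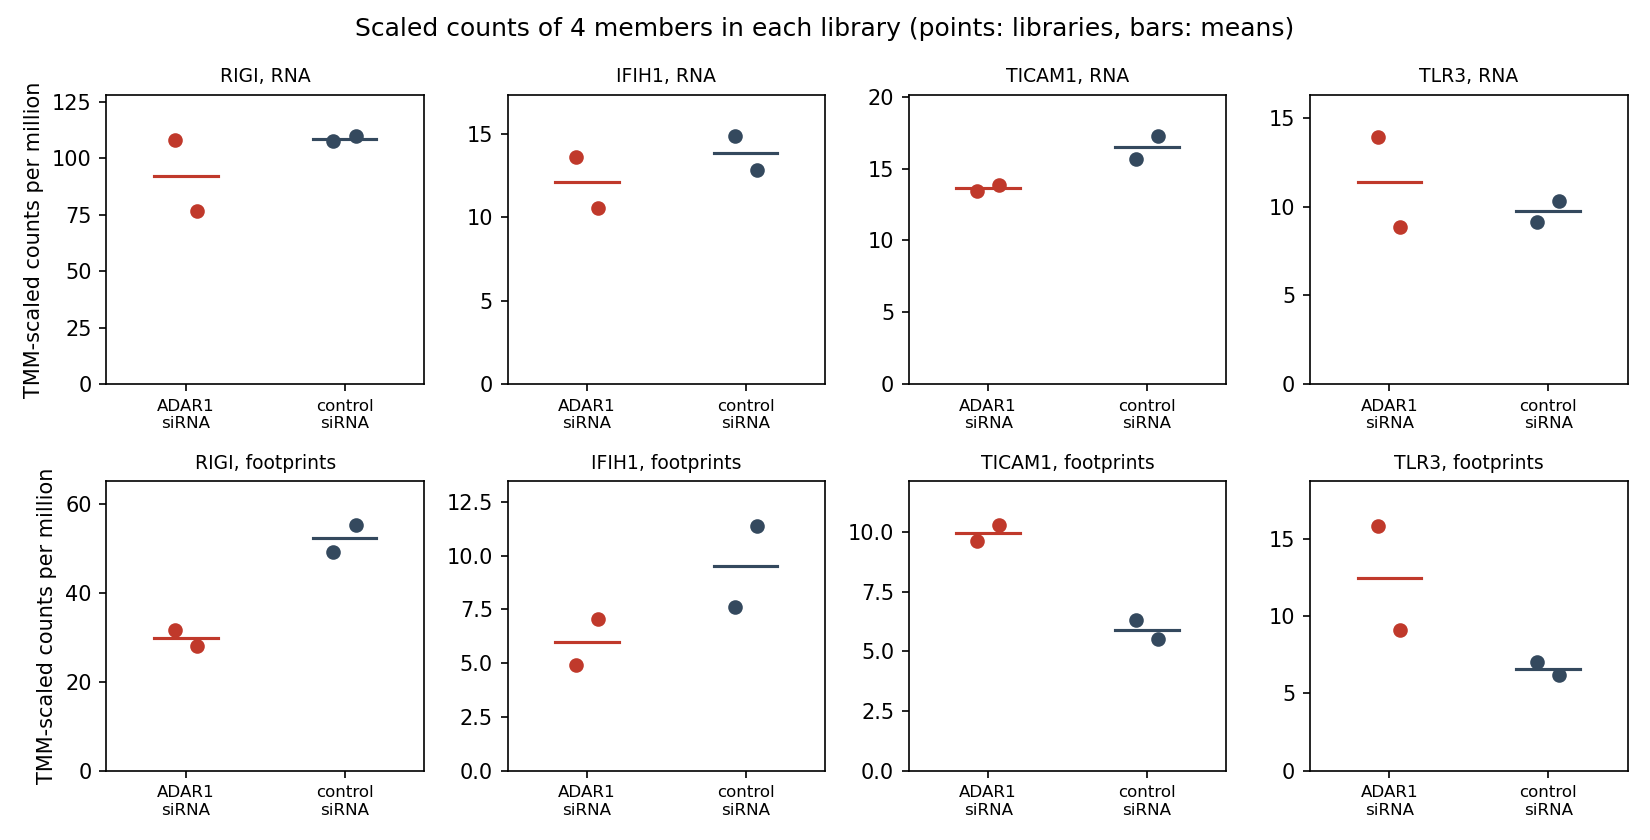
TMM-scaled CPM of the 4 members with an unadjusted p under 0.05 in footprints (RIGI, IFIH1, TLR3 and TICAM1) in each Input and Ribo-seq library, ADAR1 siRNA left of control siRNA, with a bar at the mean of 2 libraries and each axis starting at 0. In Ribo-seq, RIGI and IFIH1 lie below and TLR3 and TICAM1 above both control libraries.

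EIF2AK2 (chromosome 2, 37099210 to 37156980) encodes PKR, and it had the most footprints of the members per length. In Input its TPM was 62.6 and 51.4 with ADAR1 siRNA, against 56.1 and 54.4 with control siRNA. In Ribo-seq its TPM was 19.4 and 19.6 with ADAR1 siRNA, against 24.2 and 23.4 with control siRNA. The Input groups overlapped, whereas both ADAR1 siRNA footprint libraries were below both controls. The fit on counts gave a footprint difference of -0.15 ± 0.15 (SE) with an edgeR adjusted p of 0.605, smaller than the log2 difference of -0.29 between mean TPM values. In RNA the difference was 0.090 ± 0.080, and the translational efficiency difference was -0.21 ± 0.16 with an edgeR adjusted p of 0.480. EIF2AK2 overlaps GPATCH11, which averaged 787.75 counts in Input, and the sources used here do not say whether reads were counted by strand.

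ZBP1 (chromosome 20, 57603852 to 57620426), which binds Z-form RNA and recruits RIPK3, was at the floor of detection. It had 0 counts in 7 of 8 libraries and 3 counts in ADAR1 siRNA Ribo-seq replicate 2. A count of 0 allows up to 0.175 to 0.286 CPM (counts scaled to the library total), which covers counting error only. The kinase RIPK3 had 0 to 6 counts per library and was not tested either.

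MAVS (chromosome 20, 3846834 to 3876118) is the mitochondrial adaptor shared by RIG-I and MDA5. Its Input TPM was 38.6 and 44.5 with ADAR1 siRNA, against 43.6 and 43.2 with control siRNA. Its Ribo-seq TPM was 17.5 and 16.9 with ADAR1 siRNA, against 16.6 and 19.6 with control siRNA. The groups overlapped in both assays. The log2 difference was -0.077 in RNA (95% confidence interval -0.32 to 0.16) and 0.032 in footprints (-0.34 to 0.41), so differences inside those intervals could not be told from 0.

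TBK1 (chromosome 12, 64452120 to 64502114) had an Input TPM of 63.4 and 50.8 with ADAR1 siRNA, against 49.1 and 48.1 with control siRNA. Both ADAR1 siRNA libraries were above both controls, and the RNA difference of 0.21 ± 0.098 (SE) had an edgeR adjusted p of 0.230. The footprint TPM was 7.96 and 8.67 with ADAR1 siRNA, against 8.75 and 5.42 with control siRNA. The control footprint libraries differed more from each other than the ADAR1 siRNA ones, and the groups overlapped. IKBKE (chromosome 1, 206470476 to 206496889), whose product IKK-epsilon is the inducible relative of TBK1, had an Input TPM of 13.2 and 11.5 with ADAR1 siRNA, against 12.6 and 13.3 with control siRNA. In Ribo-seq its TPM was 2.88 and 3.25 with ADAR1 siRNA, against 2.57 and 2.53 with control siRNA. The footprint groups did not overlap. The IKBKE footprint difference was 0.40 ± 0.22 (SE), with an edgeR adjusted p of 0.296, and the translational efficiency difference was 0.53 ± 0.23, with an unadjusted p of 0.0422 and an edgeR adjusted p of 0.202.

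Separation of the groups was frequent among all genes. In RNA the deposited TPM of the 2 groups did not overlap for 3 of 9 members (TBK1 higher, DHX58 and TICAM1 lower), against 57.1% of all genes (29.2% higher and 27.9% lower). In footprints it did not overlap for 7 of 9 members, with TLR3, TICAM1 and IKBKE higher and RIGI, IFIH1, DHX58 and EIF2AK2 lower, against 54.3% of all genes (23% higher and 31.2% lower). The deposited ratios of translational efficiency did not overlap for 5 of 9 members, with TLR3, TICAM1 and IKBKE higher and RIGI and EIF2AK2 lower, against 52.9% of 12357 genes (24.6% higher and 28.3% lower). With 2 libraries against 2, an exact permutation test of 1 gene cannot go below a two-sided p of 0.333.

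**Figure D4:**
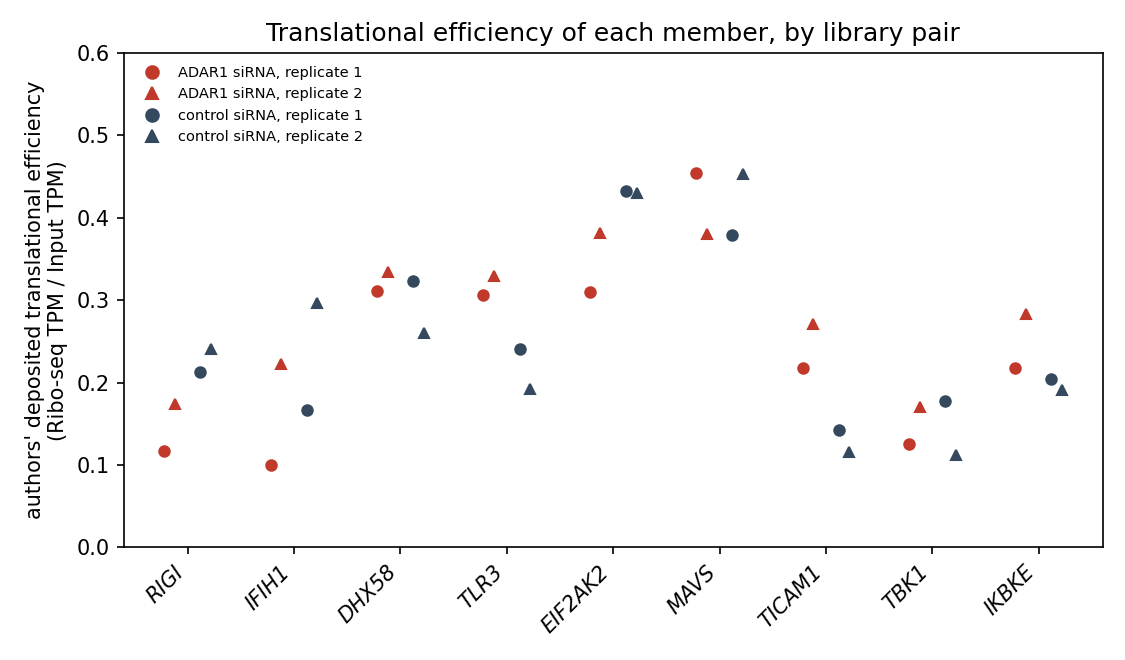
Deposited translational efficiency, Ribo-seq TPM over Input TPM, of the 9 tested members in each pair of libraries, ADAR1 siRNA left of control siRNA. RIGI is lower and TICAM1 higher in both ADAR1 siRNA pairs, while the values of IFIH1, DHX58, MAVS and TBK1 overlap.

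The members did not share 1 profile over the 8 libraries. Profiles were compared by the root mean square difference of centred log2 values, over 11743 genes. The closest pair of members was TICAM1 and IKBKE, at 0.16, followed by EIF2AK2 and MAVS at 0.16, and RIGI and IFIH1 were at 0.22. The nearest genes of each member lay outside the set. As only 9 of the 11743 genes were members, this says little about a shared profile. RIGI was nearest to ALDH7A1 at 0.067 and to ZC3HAV1 at 0.079, TICAM1 to PITX1 at 0.044, TLR3 to ELFN2 at 0.099 and to HLA-DPB1 at 0.10, and EIF2AK2 to BCL10 at 0.032. All profiles share the same 8 libraries, and the distances are a description.

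The wider pathway was described by 6 lists of 108 further genes. The lists were chosen with earlier results of these data known, so their shares beside those of all genes are a description. In RNA edgeR called 0 of the 96 tested, with 33 at an unadjusted p under 0.05 (17 higher and 16 lower, against 11.8% and 13.5% of all genes), 6 called by DESeq2 and 0 by limma-voom. In footprints edgeR called 2 higher and 6 lower of 94 tested, against 1.88% and 1.67% of all genes in those directions. In translational efficiency it called 1 lower of 96, against 0.0309% of all genes. The median footprint difference over the 94 genes was -0.16 on the log2 scale, against 0.05 over all genes.

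Of 27 sensor partners and regulators, 3 fell in footprints and none rose, with a list median of -0.25. ZC3HAV1, a zinc-finger antiviral protein with a shorter form that promotes RIG-I signalling, fell by 0.99 ± 0.17 (SE) on the log2 scale, with an edgeR adjusted p of 0.0336. The helicases DHX15 and DDX3X, both reported to aid MAVS-dependent signalling, fell by 1.03 ± 0.21 and 0.76 ± 0.18, with edgeR adjusted p-values of 0.0428 and 0.0481. In RNA the smallest p-values of the list belonged to TRIM65, an MDA5 ubiquitin ligase, at -0.52, and to TAX1BP1 at 0.32, with edgeR adjusted p-values of 0.0672 and 0.0832.

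Of 23 signalling kinases, scaffolds and transcription factors, 21 were tested in footprints and 1 fell, TRAF6, a ubiquitin ligase that links adaptors to NF-kB. Its Ribo-seq TPM was 8.51 and 12.6 with ADAR1 siRNA, against 28.4 and 26.8 with control siRNA. The Input level was 10.96 and 10.16 TPM with ADAR1 siRNA, against 8.136 and 8.002 with control siRNA. The ADAR1 siRNA libraries were thus lower in footprints and higher in RNA, without overlap. TRAF6 footprints fell by 1.14 ± 0.19 (SE) on the log2 scale (edgeR adjusted p 0.0293), and its translational efficiency fell by 1.45 ± 0.20 (edgeR adjusted p 0.0456). The translational efficiency call of TRAF6 was lost without any 1 of the 4 control libraries or either ADAR1 siRNA Input library. The list's median was 0.24 in footprints, and NFKBIA, the inhibitor of NF-kB, stood at 0.60 with an edgeR adjusted p of 0.0653.

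In the eIF2 alpha arm, downstream of PKR and its relatives, 2 of 16 genes rose in footprints and 1 fell. Over all genes, 1.88% were called higher and 1.67% lower. The list's median footprint difference was 0.085, against 0.046 over all genes, with 9 genes above 0 and 7 below. DDIT3 (CHOP), a stress transcription factor, rose by 1.53 ± 0.26 (SE) on the log2 scale with an edgeR adjusted p of 0.0334. PPP1R15A (GADD34), which recruits the phosphatase of eIF2 alpha, rose by 0.92 ± 0.16 with an edgeR adjusted p of 0.0336. EIF2B4, a subunit of the exchange factor that reactivates eIF2, fell by 0.98 ± 0.18 with an edgeR adjusted p of 0.0353. In RNA DDIT3 and PPP1R15A stood at 0.86 ± 0.14 and 0.36 ± 0.065, with edgeR adjusted p-values of 0.0647 and 0.0672. EIF2S1, which encodes eIF2 alpha itself, had a translational efficiency difference of -0.69 ± 0.16 with an edgeR adjusted p of 0.0578.

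Without control Ribo-seq replicate 2, 5 of these 8 footprint calls were lost (ZC3HAV1, DHX15, DDX3X, PPP1R15A and EIF2B4), and without control replicate 1, 2 were lost (DDX3X and PPP1R15A). The DDX3X call was also lost with upper-quartile scaling and with limma-voom. The calls held without either ADAR1 siRNA Ribo-seq library, but there the 2 controls alone set the spread and calls were far more frequent among all genes.

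The remaining 3 lists gave 1 footprint call. OASL, an OAS-like protein that binds RIG-I, belonged to the list of other nucleic acid sensors and fell by 1.49 ± 0.23 (SE) on the log2 scale, with an edgeR adjusted p of 0.0261. That list had a median footprint difference of -0.50, against 0.046 over all genes, with 11 of 13 tested genes below 0. The share of all genes below 0 was not counted. None of the 8 tested cell death partners was called in footprints. Their median was -0.33, and all 8 were below 0, with RIPK1 at -0.0087 and FADD at -0.088. CASP8 had the smallest p there, at -0.52 with an edgeR adjusted p of 0.190, and MLKL followed at -0.53. None of 9 tested genes for interferon receptors and the ISGF3 factor was called either. IFNAR2, a subunit of the type I interferon receptor, stood at 0.95 ± 0.33 (SE) in footprints with an edgeR adjusted p of 0.116. Of 8 interferon genes listed, 7 (IFNB1, IFNA1, IFNA2, IFNE, IFNK, IFNL2 and IFNL3) had 0 counts in every library, and IFNL1 had 0 to 7 counts. The same limit of 0.175 to 0.286 CPM applies to each 0.

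In RNA the smallest p-values of the other lists belonged to genes that missed the edgeR threshold. TAB2 and OPTN stood at 0.28 each, JAK1 at 0.28 and TYK2 at -0.23, MLKL at -0.35 and FADD at -0.29, and OASL and OAS3 at -0.96 and -0.35. The lowest edgeR adjusted p among these 8 genes was 0.0672, for OASL. Among genes with the smallest p-values in translational efficiency, TOMM70, an outer mitochondrial membrane receptor reported to bind MAVS, stood at -0.67, EIF2B4 at -0.74, CGAS at -0.51 and IFNAR2 at 0.86. The edgeR adjusted p-values of these 4 ranged over 0.0578 to 0.128. NLRP1 followed OASL in footprints, at -0.91 with an edgeR adjusted p of 0.0602.

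**Figure D5:**
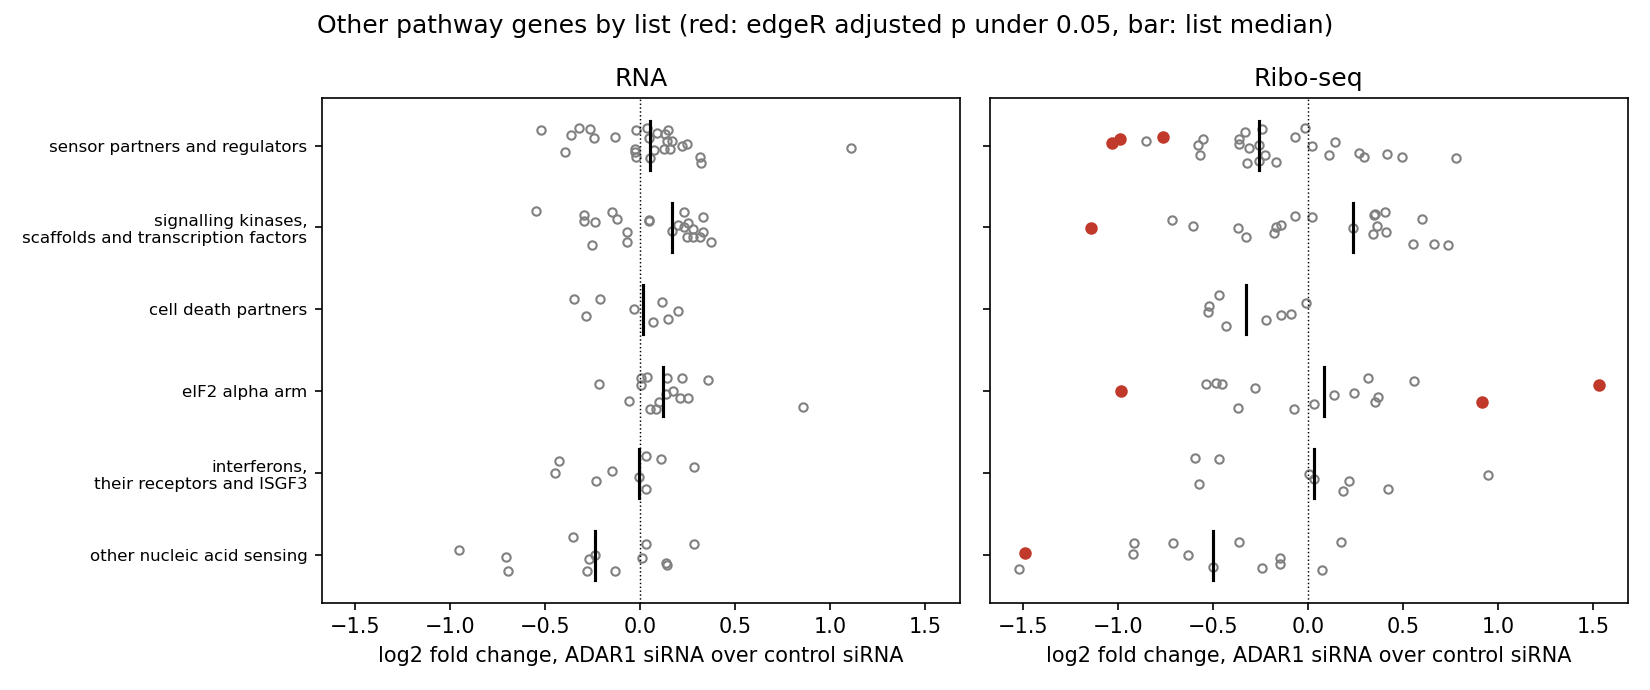
Log2 fold change in RNA and in footprints (Ribo-seq), ADAR1 siRNA over control siRNA, of the tested genes of the 6 pathway lists, with genes past the threshold in red and the list median as a bar. No gene is red in RNA, and the 8 footprint calls are 6 lower (ZC3HAV1, DHX15, DDX3X, TRAF6, EIF2B4 and OASL) and 2 higher (DDIT3 and PPP1R15A).

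The 7 immune cell markers summed to 388 and 307 TPM with ADAR1 siRNA and to 389 and 380 TPM with control siRNA in Input, and to 481 and 361 TPM against 303 and 337 TPM in Ribo-seq. Of these markers, 4 or 5 were under 1 TPM in each library. PTPRC stayed at or under 0.377 TPM in all 8 libraries, and CD3E had at most 1 count. The sums were carried by CD68 and HLA-DRA. CD68 had 183 and 179 TPM with ADAR1 siRNA and 232 and 232 TPM with control siRNA in Input. HLA-DRA had an Input TPM of 203 and 127 with ADAR1 siRNA, against 154 and 146 with control siRNA. The footprint TPM was 376 and 265 with ADAR1 siRNA, against 195 and 222 with control siRNA. HLA-DRA and TLR3 were both highest in ADAR1 siRNA replicate 1 in each assay, which is also the replicate with the least ADAR. The part of the remaining ADAR level and of other cells in these values was not tested.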

How the data were processed

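RNA-seq (Input) and Ribo-seq were measured in MDA-MB-231 cells given ADAR1 siRNA or control siRNA. The authors deposited 1 table of estimated counts per gene, of TPM, and of translational efficiency as a ratio, which equals the Ribo-seq TPM over the Input TPM of the same siRNA and number. Per the submitters' processing notes, cutadapt, Bowtie2, STAR and featureCounts were used with GRCh38 (hg38); versions, roles, the strand setting and gene lengths behind TPM are not stated there. Of the deposited estimated counts, 87% to 90.1% were whole per library, and all were rounded. Gene numbers were matched to RefSeq symbols for 19669 of 19892 genes.

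Counts were tested with edgeR 4.0.16 (R 4.3.3; TMM, filterByExpr, quasi-likelihood, two-sided, Benjamini-Hochberg over all genes, threshold 0.05). Translational efficiency was the assay by siRNA interaction over 8 libraries. Alternatives were upper-quartile and size-factor scaling, DESeq2 1.42.0, limma-voom (limma 3.58.1), no filter, a mean count of at least 50, a replicate block and leaving out libraries. The fits were tested on simulated data. Deposited ratios were ranked among genes with a mean Input of at least 1 TPM, and profiles were compared as log2 CPM with a prior count of 2. All 10 members, ADAR and the genes with the smallest p or a call in each pathway list were eligible to be named. Members and lists were chosen with earlier results of these data known. HLA-DRA and RIPK3 were named after their values were seen. Some genes of the lists and 1 promoter window are not reported here.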

Additional observations from a re-analysis of the deposited data

Results flagged for a closer look

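The ADAR1 siRNA libraries lay on one side of both controls in Input and on the other side in Ribo-seq for 1 of 9 members and 16 of 94 other pathway genes (17%), against 13.7% of the 11743 genes tested in both assays. Values are given for the 9 of these genes that were eligible to be named. The member was TICAM1, with a log2 fold change in translational efficiency of 1.05. Of the other pathway genes, IKBKB, a kinase of the NF-kB pathway, was at 0.69. The values were negative for CASP8 (-0.69), DDX3X (-0.89), DHX15 (-1.08), EIF2S1 (-0.69), TAX1BP1 (-0.63), TOMM70 (-0.67) and TRAF6 (-1.45). The interaction of assay and siRNA passed edgeR's adjusted threshold for TRAF6 (adjusted p 0.0456) and for none of the other 8.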

How the results depend on the processing

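Of 348 recomputed member differences (9 members, 3 comparisons, all alternatives), 312 kept their direction and side of the threshold, 20 passed it newly, 2 no longer passed it (RIGI in footprints, without either control Ribo-seq library) and 14 turned sign; DESeq2 values with no adjusted p were read by direction only. Members called in footprints were 3 with no filter and 3 with the replicate block (RIGI, TICAM1 and TLR3), and in translational efficiency 1 with no filter and 1 with the block (TICAM1). Over all genes these settings called 10.9% (no filter) and 17.5% (block) in footprints and 5.04% and 9.02% in translational efficiency. Pathway genes called in RNA were 6 with DESeq2 and 12 with the block; in footprints 15 with DESeq2, 19 with no filter and 24 with the block; in translational efficiency 11 with DESeq2, 0 with limma-voom, 9 with no filter, 0 at a mean count of at least 50 and 10 with the block. DESeq2 called 3.55%, 8.15% and 7.58% of all genes in RNA, footprints and translational efficiency, and the block 8.66% in RNA. Leaving out libraries gave 0 to 4 members and 0 to 51 pathway genes in RNA, 0 to 3 and 3 to 39 in footprints, and 0 to 1 and 0 to 22 in translational efficiency, against 0% to 42.1%, 0.621% to 28.1% and 0% to 16.9% of all genes. Without both ADAR1 siRNA libraries of replicate 1, 1 member (TICAM1) and 8 pathway genes were called in translational efficiency, and without both of replicate 2, 2 members (TICAM1 and RIGI) and 35 pathway genes (7.88% and 24.3% of all genes); MAVS then stood at -0.13 (replicate 1) and TBK1 at -0.057 (replicate 2). Without ADAR1 siRNA Input replicate 1, RIGI and IFIH1 were called in RNA, and without replicate 2, TBK1, EIF2AK2, MAVS and TLR3 were. MAVS turned to -0.0011 in footprints with size-factor scaling and with DESeq2 (-0.0011). Sign changes on leaving out libraries gave ranges of -0.14 to 0.51 (TLR3), -0.0040 to 0.18 (EIF2AK2) and -0.23 to 0.058 (MAVS) in RNA, -0.076 to 0.13 (MAVS) and -0.0011 to 0.73 (TBK1) in footprints, and -0.21 to 0.56 (TBK1), -0.00093 to 0.46 (DHX58) and -0.080 to 0.25 (MAVS) in translational efficiency. The cause was not tested. The shared replicate numbers did not pair the libraries of the 2 siRNAs. Over 11743 genes, deviations correlated at -0.036 between the siRNAs in Input and 0.037 in Ribo-seq, and the main fits of these assays use no block. Between the assays, deviations correlated at 0.0078 with control siRNA and 0.38 with ADAR1 siRNA. The ADAR1 siRNA Input and Ribo-seq libraries of 1 number thus did deviate together. For translational efficiency the block pairs the assays within each siRNA, and the main interaction leaves that pairing out. Leaving out both ADAR1 siRNA libraries of 1 number was added after the data were seen. Footprint counts under 100 in at least 1 library limit DHX58, IFIH1, TLR3, TICAM1 and IKBKE.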
